A study of Cucumis sativus with 4 samples.

Results

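Among the transcripts of cucumber axillary buds, 158 genes were both abundant in CsBRC1-RNAi buds and well above their wild-type level, and they are described here. They were chosen by the measured values themselves: a mean normalised signal of at least 100 over both CsBRC1-RNAi libraries, a lower CsBRC1-RNAi value at least 2 times the higher wild-type value, and 0.5 or more in 1 or both wild-type libraries. The rule kept 158 of the 17770 genes in the table, and 158 of the 2283 genes (6.92%) with a mean CsBRC1-RNAi value of at least 100. Since the rule used the difference between the genotypes, their higher level is a description of the choice and carries no test.

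The CsBRC1-RNAi plants carried a construct that silences CsBRC1 by RNA interference, built on 585 bp of its coding sequence and brought into the inbred line R1461 with Agrobacterium, and 2 libraries came from them (CsBRC1-RNAi replicates 1 and 2). The other 2 libraries came from plants whose genotype label is wild type (wild type replicates 1 and 2). An empty PFGC-1008 vector is named as the transformation control, but the genotype label does not say that the wild-type plants carried it. All 4 libraries came from lateral buds of one node position on plants 2 months old. The labels do not say whether the libraries of a genotype came from separate plants, pools or transformed lines, so the spread between them may be technical.

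BRANCHED1 genes such as CsBRC1 encode transcription factors of the TCP family, which keep axillary buds of flowering plants from growing out into branches. When such a bud is released from arrest, its cells divide and expand and it builds leaves and stem. In RNA sequencing the reads of a library are a fixed sum, so a group of abundant genes that takes more of the reads leaves fewer for all others, and a scaling factor is needed to compare levels. The table identifies genes by codes of the form Csa, a digit, G and a running number, and none of the 17770 codes was found in the RefSeq cucumber gene table. Therefore no name or function is given for any gene, the level of CsBRC1 and of bud marker genes was not checked, and genes of an auxin or cell cycle pathway could not be counted. In bulk tissue, more cells that express a gene and more RNA per cell cannot be told apart.

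The libraries held between 26912976 and 32385236 reads, recovered from the deposited values. The chosen genes were far above the limit of counting: the fewest reads of any of them were 2110 in a CsBRC1-RNAi library and 44 in a wild-type library. The replicates differed by more than sampling noise, with a chi-square per degree of freedom of 89.6 between the CsBRC1-RNAi libraries and 135 between the wild-type libraries. Values are normalised signal (the authors' CPM-like scale) unless a share or a fold is named. They are not divided by gene length, so an order of genes by signal is not an order by number of transcripts.

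Together the 158 genes took 6.29% of all signal in CsBRC1-RNAi replicate 1 and 5.45% in CsBRC1-RNAi replicate 2, against 2.08% in wild type replicate 1 and 1.5% in wild type replicate 2. The share was thus higher in both CsBRC1-RNAi libraries than in either wild-type library, a direction set by the choice. Because each column is a library's reads times 1 factor, these are also shares of reads. Which genes are counted does depend on the scaling: on columns rescaled to sum to 1000000 the rule found 80 genes, which took 3.99% and 3.12% of the CsBRC1-RNAi libraries and 0.971% and 0.737% of the wild-type libraries, a difference of 2.70 percentage points between the mean shares. The 95% Wilson intervals of the 4 shares were 6.28% to 6.30%, 5.45% to 5.46%, 2.08% to 2.09% and 1.49% to 1.5% in the same order, and cover counting error only. The mean share was 5.87% ± 0.590 in CsBRC1-RNAi and 1.79% ± 0.412 in wild type (SD, n = 2 each), a difference of 4.08 percentage points and a ratio of 3.28.

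**Figure D1:**
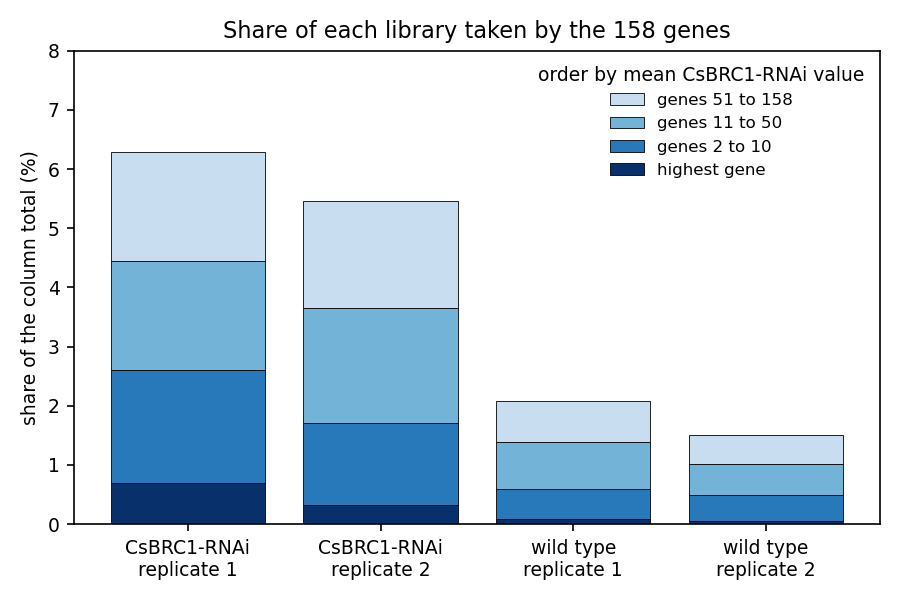
Share of each library's column total (percent, vertical axis from 0) taken by the 158 genes, stacked by their order of mean CsBRC1-RNAi value, with 1 bar per library. The bars reach 6.29% and 5.45% in CsBRC1-RNAi and 2.08% and 1.5% in wild type, and the difference between the CsBRC1-RNAi bars lies in the 10 highest genes.

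The 10 highest genes and the other 148 behaved differently between the CsBRC1-RNAi libraries. The 10 highest took 2.61% and 1.71% of CsBRC1-RNAi replicates 1 and 2, against 0.593% and 0.488% of wild type replicates 1 and 2. The other 148 took 3.68% and 3.74% of the CsBRC1-RNAi libraries, against 1.49% and 1.01% of the wild-type libraries in the same order. The CsBRC1-RNAi replicates therefore differed in the share of the leading genes, while for the other 148 genes the wild-type replicates were the less alike pair. The highest gene alone took 0.703% and 0.316% of CsBRC1-RNAi replicates 1 and 2, and genes 2 to 10 took 1.90% and 1.40%. The 2125 other genes with a mean CsBRC1-RNAi value of at least 100 also took more of replicate 1, at 57.3% against 54.8%. Genes outside the members at the level of the 10 highest were not compared. Over the 10 highest the mean share was 2.16% ± 0.633 in CsBRC1-RNAi and 0.540% ± 0.0742 in wild type, and over the other 148 it was 3.71% ± 0.0427 in CsBRC1-RNAi and 1.25% ± 0.337 in wild type (SD, n = 2 each).

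The increase was spread over many genes. Summed over the 158 genes, the mean signal was 63495 in CsBRC1-RNAi and 16572 in wild type, a difference of 46923. The 10 genes with the highest CsBRC1-RNAi level made up 39.4% of that difference and the single highest 10.5%. Ordered by their own increase, 20 genes were needed for 50% of it and 107 for 90%. The deposited columns themselves had larger totals in CsBRC1-RNAi (1134691 and 1020300) than in wild type (905783 and 953609). Each total follows from the scaling factor of its column, so it does not measure an amount of RNA. The summed difference of the 158 genes was 31.7% of the difference between the mean totals. By the same measure the remaining 2125 genes with a mean CsBRC1-RNAi value of at least 100 made up 92.2%. These percentages together exceed 100%, because the genes under that mean had a lower summed signal in CsBRC1-RNAi than in wild type. Those 2125 genes took 57.3% and 54.8% of the CsBRC1-RNAi libraries and 51.1% and 49.7% of the wild-type libraries. Their median ratio of CsBRC1-RNAi to wild-type means was 1.31, so the chosen genes were the upper end of a set picked for abundance in CsBRC1-RNAi that was itself mostly higher there. That median is not independent of a choice on the CsBRC1-RNAi level.

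The members' place among the expressed genes differed between the genotypes, in the direction that the rule chose for. Counted from the most abundant gene, their median rank was 702.5 and 733.5 in CsBRC1-RNAi replicates 1 and 2, against 3315 and 4693.5 in wild type replicates 1 and 2. Of the 100 most abundant genes, 13 and 12 were members in the CsBRC1-RNAi libraries, against 5 and 3 in the wild-type libraries. In wild type 102 of the 158 stayed under 100 in both libraries and 30 reached 100 in both, so most were of moderate level there rather than rare. By wild-type mean, 2 genes lay under 10, 54 between 10 and 50, 58 between 50 and 100, and 44 at 100 or more.

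**Figure D2:**
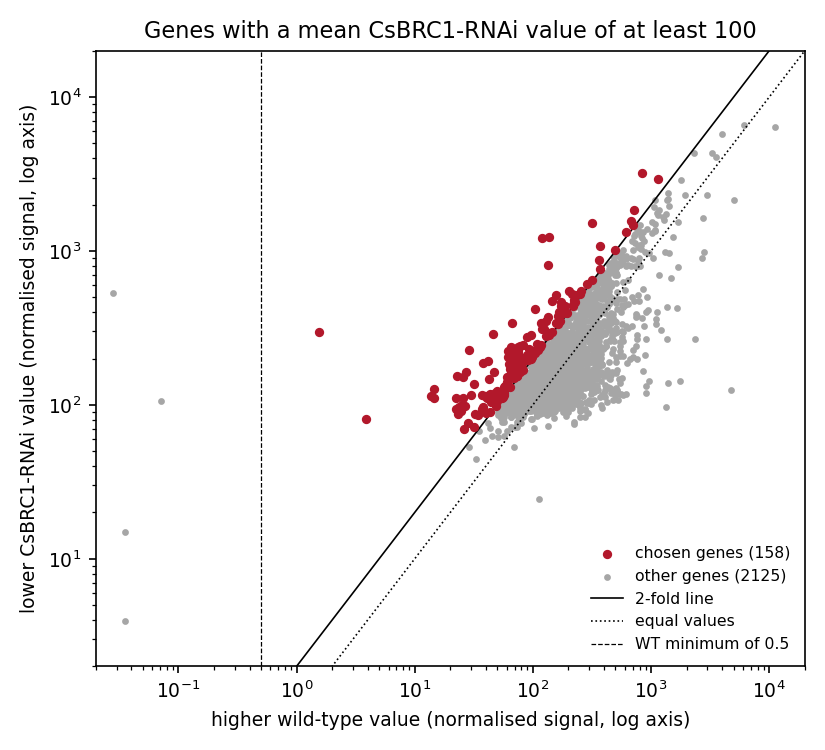
Lower CsBRC1-RNAi value (vertical log axis, normalised signal) against higher wild-type value (horizontal log axis, normalised signal) for the 2283 genes with a mean CsBRC1-RNAi value of at least 100. Red points are the 158 chosen genes above the 2-fold line and right of the wild-type minimum of 0.5, grey points the other 2125, of which 4 lie left of that minimum.

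The ratio of the group means ran from 2.29 to 266 over the 158 genes, with a median of 3.49 and quartiles of 2.84 and 4.57. It lay under 3 in 51 genes, between 3 and 4 in 56, between 4 and 8 in 40, and at 8 or more in 11. Among the members the median ratio differed little between levels of abundance. It was 3.67 in the 67 genes with a CsBRC1-RNAi mean under 200 and 3.41 in the 66 between 200 and 500. In the 14 between 500 and 1000 it was 3.41, and in the 11 at 1000 or more it was 3.35. The rule keeps only ratios of at least 2, so these medians are not independent of the choice. Library by library, the median ratio was 3.17 for CsBRC1-RNAi replicate 1 over wild type replicate 1 and 4.48 for it over wild type replicate 2. For CsBRC1-RNAi replicate 2 it was 2.64 over wild type replicate 1 and 4.05 over wild type replicate 2. Over all members the median ratio thus depended more on which wild-type library was used than on which CsBRC1-RNAi library. In the 11 at 1000 or more, the CsBRC1-RNAi replicates were the less alike pair. Their median ratio of replicate 2 to replicate 1 was 0.677 in CsBRC1-RNAi and 0.852 in wild type. The rule sets the lower CsBRC1-RNAi value against the higher wild-type value, so these ratios are not independent of the choice.

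The highest gene, Csa6G522690, had 7977 and 3227 in CsBRC1-RNAi replicates 1 and 2, against 839 and 512 in wild type replicates 1 and 2. It was the 4th and 8th most abundant gene of the CsBRC1-RNAi libraries and ranked 48 and 148 in the wild-type libraries. Its mean was 5602 ± 3359 in CsBRC1-RNAi and 676 ± 231 in wild type (SD, n = 2 each), a ratio of 8.29. CsBRC1-RNAi replicate 1 stood far above replicate 2, and both were above the wild-type libraries. This gene alone took 0.703% and 0.316% of the CsBRC1-RNAi libraries, against 0.0927% and 0.0537% of the wild-type libraries.

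Of the 10 highest, 2 genes combined a high final level with a modest wild-type level. Csa1G445860 had 3405 and 1227 in CsBRC1-RNAi, against 136 and 76.0 in wild type, a ratio of means of 21.8. Its rank was 18 and 52 in the CsBRC1-RNAi libraries, against 1304 and 3133 in the wild-type libraries. Csa3G664560 had 2095 and 1217 in CsBRC1-RNAi, against 65.4 and 120 in wild type, a ratio of 17.8. Its rank was 34 and 54 in CsBRC1-RNAi, against 3616 and 1693 in wild type. In both genes CsBRC1-RNAi replicate 1 was the highest library, while the wild-type replicates stood in opposite order in these genes.

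The other 7 started from a higher wild-type level. Csa6G448110 had 3581 and 2915 in CsBRC1-RNAi, against 1156 and 985 in wild type, the highest wild-type level of any member. Csa1G228960 had 2096 and 1526 in CsBRC1-RNAi, against 305 and 317 in wild type, and Csa4G638340 had 2387 and 1082, against 372 and 274. The wild-type replicates of Csa1G228960 lay close together, whereas the CsBRC1-RNAi replicates of Csa4G638340 differed by a ratio of 2.21.

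The remaining 4 had ratios of means between 2.55 and 3.35. Csa1G599450 had 2307 and 1562 in CsBRC1-RNAi, against 652 and 676 in wild type. Csa3G822260 had 1838 and 1918 in CsBRC1-RNAi, against 712 and 409 in wild type, and was the one gene of the 10 with the higher value in CsBRC1-RNAi replicate 2. Csa6G147530 had 2176 and 1464 in CsBRC1-RNAi, against 520 and 702 in wild type. For Csa7G014450 the values were 1711 and 1323 in CsBRC1-RNAi, against 611 and 579 in wild type, and its ratio was the smallest of the 10.

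**Figure D3:**
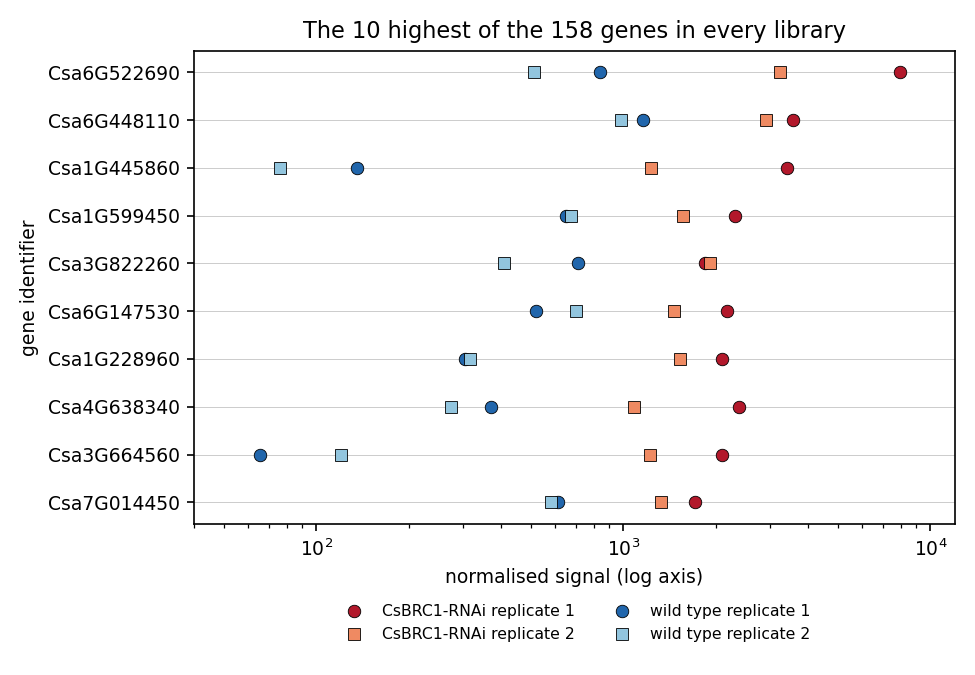
Normalised signal (horizontal log axis) of the 10 genes with the highest CsBRC1-RNAi mean, 1 row per gene and 1 point per library. In every row both CsBRC1-RNAi points lie right of both wild-type points, and CsBRC1-RNAi replicate 1 is the highest point in all but Csa3G822260, with 1838 against 1918 in replicate 2.

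Outside the 10 highest, the largest ratio was that of Csa3G119620, which had 298 and 505 in CsBRC1-RNAi, against 1.45 and 1.56 in wild type. The wild-type values stood for 52 and 44 reads, so this was a low but measured level, and the ratio of means was 266. Csa2G363030 had 167 and 80.5 in CsBRC1-RNAi, against 2.82 and 3.86 in wild type, a ratio of 37.0. These were the only members with a wild-type mean under 10.

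Next in ratio came 3 genes with wild-type means between 10 and 25. Csa6G151130 had 295 and 228 in CsBRC1-RNAi, against 28.7 and 11.6 in wild type, a ratio of 13.0. Csa7G056500 had 111 and 161 in CsBRC1-RNAi, against 6.99 and 14.5 in wild type, a ratio of 12.7. Csa5G199280 had 183 and 126 in CsBRC1-RNAi, against 13.3 and 14.5 in wild type, a ratio of 11.1. Even the lower CsBRC1-RNAi value of each was more than 7 times the higher wild-type value, at 7.93, 7.62 and 8.69 times in this order.

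The replicates of each genotype did not share the same pattern among the members. In CsBRC1-RNAi, replicate 1 was above replicate 2 in 90 of the 158 genes (57.0%), close to the 1194 of 2125 (56.2%) among the other genes with a mean CsBRC1-RNAi value of at least 100. The replicates lay within 1.5 times of each other in 124 members (78.5%), against 1829 of the others (86.1%). Replicate 1 was at least 1.5 times higher in 31 members (19.6%), against 271 of the others (12.8%). Replicate 2 was at least 1.5 times higher in 3 members (1.90%), against 25 of the others (1.18%). These shares were not tested. Among the 11 members with a CsBRC1-RNAi mean of 1000 or more, replicate 1 was above replicate 2 in 10, and their median ratio of replicate 2 to replicate 1 was 0.677. In the classes of 100 to 200, 200 to 500 and 500 to 1000 the median of that ratio was 0.937, 0.992 and 1.0. Gaps of at least 1.5 times in favour of replicate 1 were found at every level, in 13 of 67, 11 of 66 and 3 of 14 genes of these classes and in 4 of the 11 highest.

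In wild type, replicate 1 was above replicate 2 in 128 of the 158 genes (81.0%), against 1261 of the 2125 others (59.3%). It was at least 1.5 times higher in 74 members (46.8%), against 374 of the others (17.6%), and replicate 2 was at least 1.5 times higher in 9 members. The rule limits only the higher wild-type value and leaves the lower one free, so these counts are not independent of the choice and no test is given. By the mirror of the rule, with a wild-type mean of at least 100 and both wild-type values at least 2 times both CsBRC1-RNAi values, 87 genes were found. Of these, 15 had wild type replicate 1 above replicate 2, so in both sets wild type replicate 1 was more often the library nearer to CsBRC1-RNAi. The 87 genes took 0.456% and 0.540% of the CsBRC1-RNAi libraries, against 2.15% and 3.48% of the wild-type libraries.

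**Figure D4:**
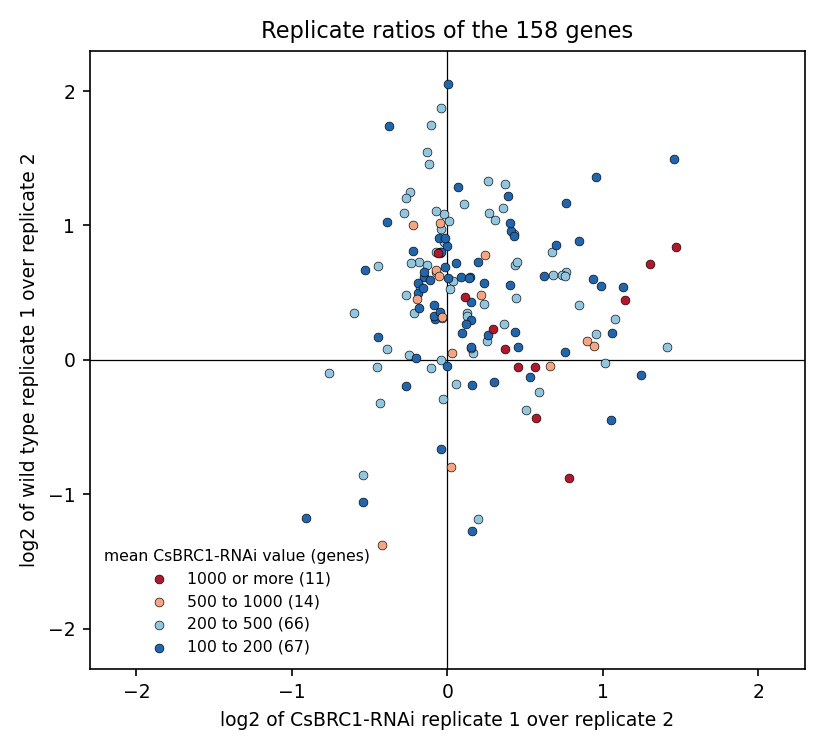
Log2 of wild type replicate 1 over replicate 2 (vertical axis) against log2 of CsBRC1-RNAi replicate 1 over replicate 2 (horizontal axis), 1 point per gene, coloured by mean CsBRC1-RNAi value. Most points (128 of 158) lie above the horizontal zero line, and 10 of the 11 genes at 1000 or more lie right of the vertical one.

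The members with the widest replicate gaps were found at both ends of these distributions. Csa1G445860, given above, had the smallest ratio of CsBRC1-RNAi replicate 2 to replicate 1, at 0.360, followed by Csa1G602540 with 240 and 87.1 in CsBRC1-RNAi, against 23.1 and 8.22 in wild type. Csa1G542510 had the largest, at 1.87, with 100.1 and 188 in CsBRC1-RNAi, against 11.1 and 25.1 in wild type, and Csa3G119620 was next at 1.69. In Csa1G602540 and Csa1G542510 the wild-type replicates differed in the same order as the CsBRC1-RNAi replicates.

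For wild type the extremes were other genes. Csa7G048030 had 121 and 121 in CsBRC1-RNAi, against 53.8 and 13.0 in wild type, and Csa1G000010 had 223 and 229 in CsBRC1-RNAi, against 98.8 and 27.0 in wild type. Csa1G187170 had 476 and 638 in CsBRC1-RNAi, against 55.6 and 145 in wild type. In these 3 genes the wild-type replicates were further apart than the CsBRC1-RNAi replicates, so the ratio of means rests strongly on which wild-type library is taken. Csa7G067370, with 108 and 96.4 in CsBRC1-RNAi, against 9.76 and 23.7 in wild type, had the second largest ratio of wild type replicate 2 to replicate 1, at 2.42.

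At the edge of the level criterion, the members with the lowest CsBRC1-RNAi mean were Csa4G425740, with 135 and 69.3 in CsBRC1-RNAi, against 26.2 and 10.2 in wild type, and Csa7G067370. Just outside it were Csa5G148600, with 95 and 104 in CsBRC1-RNAi, against 46.3 and 23.1 in wild type, and Csa6G450350, with 92.2 and 105, against 40.5 and 20.4. In 16 members 1 of the CsBRC1-RNAi values was under 100.

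At the edge of the fold criterion, Csa2G174120 had 437 and 461 in CsBRC1-RNAi, against 218 and 125 in wild type, and Csa2G403690 had 107 and 98.5, against 49.0 and 40.8. Just outside it, Csa4G623380 had 273 and 122 in CsBRC1-RNAi, against 61.0 and 60.8 in wild type, and Csa7G044980 had 261 and 261, against 119 and 131. Their nearest-library ratios were 2.0, 2.01, 1.99 and 1.99, so the criterion separates genes that are alike.

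The wild-type minimum fell in a gap. The 2 members nearest to it were Csa3G119620 and Csa2G363030, and 4 genes were left out by this criterion alone. Of these, Csa4G637770 had 105 and 592 in CsBRC1-RNAi, against 0.0559 and 0.0709 in wild type, which is 2 reads in each wild-type library. Csa3G827350 had 15 and 258 in CsBRC1-RNAi, against 0 and 1 read in wild type. The 4 genes took 0.0576% of CsBRC1-RNAi replicate 1 and 0.424% of replicate 2, and all 4 were higher in replicate 2. Most of this share came from 1 gene, Csa3G104850. It had 530 and 3234 in CsBRC1-RNAi, against 0.0280 and 0 in wild type.

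Read as a chromosome, the digit in the code placed members on all 7 chromosomes. There were 26 on chromosome 1, 26 on 2, 28 on 3, 17 on 4, 16 on 5, 32 on 6 and 13 on 7. As a share of the genes on each with a mean CsBRC1-RNAi value of at least 100, this ran from 5.52% on chromosome 5 to 8.78% on chromosome 2 and 8.58% on chromosome 6. The reading of the digit follows the naming convention of these codes and was not checked against an assembly, and the shares were not tested against each other.

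Among the members, 7 genes (4.43%) stood next to another member in the order of the table, in 3 runs with 4 adjacent pairs. How often sets of other genes stand side by side was not counted, so nothing is read from this number. On chromosome 6, Csa6G192080, Csa6G193580 and Csa6G193590 formed a run of 3. The first had 281 and 207 in CsBRC1-RNAi, against 76.1 and 55.3 in wild type. The second had 268 and 198, against 69.4 and 42.7, and the third 196 and 148, against 42.9 and 22.1. Their ratios of CsBRC1-RNAi replicate 2 to replicate 1 were 0.737, 0.740 and 0.754, while those of wild type replicate 2 to replicate 1 were 0.727, 0.615 and 0.515 and the ratios of group means 3.72, 4.15 and 5.28.

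The other runs were pairs. Csa6G107320 had 117 and 98.9 in CsBRC1-RNAi, against 26.7 and 18.0 in wild type, and its neighbour Csa6G107330 had 140 and 117, against 43.7 and 38.4, with ratios of group means of 4.83 and 3.14. Csa2G196900 had 313 and 287 in CsBRC1-RNAi, against 46.4 and 36.4 in wild type, and Csa2G199900, the next gene of the table, had 164 and 154, against 22.6 and 19.7, with ratios of 7.24 and 7.53. The running numbers of this last pair lie 3000 apart and those of Csa6G192080 and Csa6G193580 lie 1500 apart, so genes that the table does not list may lie between them. How reads shared by near-identical or overlapping genes were counted is not given in the sources used here, and such sharing was not tested.

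Across all genes, 17726 were tested by limma on log2(value + 1), and all 158 members were among them. At a Benjamini-Hochberg adjusted p under 0.05, 86 of the 158 were called higher in CsBRC1-RNAi, against 2.20% of all genes called higher. Those 86 were 54.4% of the members and 22.1% of the 390 genes called higher. By edgeR on the recovered reads 53 members were called, against 1.44% of all genes, and by DESeq2 all 158, against 12.8% of all genes. Both CsBRC1-RNAi values lay above both wild-type values in 33.3% of all genes tested, and 5.05% had a lower CsBRC1-RNAi value at least 2 times the higher wild-type value. The rule used this contrast, so the members' counts are given beside the background and nothing is read from them.

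The median log2 fold change over the members was 1.83, against -0.01 over all genes tested. It was 2.09 without wild type replicate 1 and 1.53 without wild type replicate 2, and 1.72 and 1.89 without CsBRC1-RNAi replicates 1 and 2. The number of members called by limma was 140, 0, 3 and 1 in the same order, beside 3531, 0, 63 and 3 calls in either direction over all genes. Without wild type replicate 2, 4571 of the 17726 genes were at an unadjusted p under 0.05. Since every CsBRC1-RNAi value of a member is at least 2 times every wild-type value by the rule, a positive median was fixed by the choice.

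A choice on 1 library of each genotype leaves the other pair unused, and gives values in libraries the choice did not see. Chosen on CsBRC1-RNAi replicate 1 and wild type replicate 1 with the same limits, 473 genes were found, and 240 of them (50.7%) were at least 2-fold higher in CsBRC1-RNAi replicate 2 over wild type replicate 2. Of all genes past the level limits in the choosing pair, 27.1% were. Chosen on CsBRC1-RNAi replicate 2 and wild type replicate 2, 633 genes were found, of which 208 (32.9%) were at least 2-fold higher in the other pair, against 16.6% of all genes past the level limits.

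With the pairs crossed, 816 genes were chosen on CsBRC1-RNAi replicate 1 and wild type replicate 2, of which 212 (26.0%) were at least 2-fold higher in the other pair, against 9.97%. On CsBRC1-RNAi replicate 2 and wild type replicate 1, 237 genes were chosen and 199 (84.0%) were, against 32.6%. In the 4 choices between 0.948% and 6.98% of the chosen genes were lower in the other pair, against 28.5% to 32.4% of all genes past the level limits. The genes past the limits include the chosen ones, and these shares were not tested. They describe the sets chosen on each pair, and they vary with which libraries did the choosing. These sets hold nearly all members, since only 16 of the 158 had a CsBRC1-RNAi value under 100. By the rule each member is at least 2-fold higher in the other pair, so for members this outcome was fixed. Libraries of a genotype may be technical replicates, so the shares do not show how the members would repeat in other plants.

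How many genes the rule found depended on the scaling of the columns. On columns rescaled to sum to 1000000, which moved the median log2 change of all genes from -0.01 to -0.20, 80 genes met it, all of them among the 158. After median-of-ratios scaling it was 163, including all 158, and after quantile normalization 99, all among the 158.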

How the data were processed

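RNA sequencing libraries of cucumber axillary buds, 2 CsBRC1-RNAi and 2 wild type, were analysed from the deposited table. Reads were aligned with HISAT and counted with HTSeq, per the submitters' processing notes. The sources used here do not give versions, genome build, annotation or strandedness. In the deposited table the values are a normalised signal, 1 per gene and library, called CPM in the table's name. Every column held only whole multiples (100%) of its smallest value above 0 (within 1e-06), so whole reads were recovered. The implied effective library sizes equalled those of edgeR's trimmed mean of M-values, so the table has the form of CPM scaled that way. A single read was worth 0.0280 to 0.0392. No row lacked an identifier, 0 columns came from outside the series, and 0 of 17770 identifiers matched the 23999 genes of the RefSeq table.

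The rule was applied to the values as deposited, and shares are sums over column totals. The whole table was fitted with limma 3.58.1 (R 4.3.3) (log2 of value + 1, prior variance trended, no block). Genes had to reach 1 in 2 or more libraries, which kept 17726 and removed 44, and p-values were Benjamini-Hochberg adjusted. edgeR 4.0.16 and DESeq2 1.42.0 on the recovered reads, other pseudocounts, filters, scalings, rule limits, a replicate block and leaving out each library were alternatives. The correlation across genes of the replicate differences of both genotypes was 0.0376 and no label pairs the numbers, so libraries were not paired.

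Members and the genes named were chosen with earlier results of these data known. Named were the 10 members with the highest CsBRC1-RNAi mean, the 5 largest ratios among the rest, the 2 genes on each side of each limit, members adjacent in the table, and those with the most extreme replicate ratios. The choices on 1 library per genotype and the mirror of the rule were added after seeing the data. Csa3G104850 was named in addition, for its part in the share of the genes under the wild-type minimum.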

Additional observations from a re-analysis of the deposited data

How the results depend on the processing

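Over all genes, limma called 640 genes. It called 416 when only genes averaging 5 or more were tested, 1561 with the replicate block, and 3426 at an adjusted p under 0.1, while edgeR called 422 and DESeq2 3917. Among the members, 86 were called by limma, 141 with the replicate block, 53 by edgeR and 158 by DESeq2. Leaving out each library gave 0 to 3531 calls over all genes and 0 to 140 among the members (0 in both without wild type replicate 2, when 4571 of 17726 genes were at an unadjusted p under 0.05 by limma). Such a fit assumes that the lone library varies like the other genotype. The median log2 fold change of the members was 1.53 to 2.09 with a library left out and 1.69 to 1.85 under the other settings. Nothing shows that the replicate numbers pair libraries, and the cause of these shifts was not tested.

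The rule found 158 genes with a share difference of 4.08 percentage points. It found 80 (2.70 points) on columns rescaled to 1000000, 99 after quantile normalization, 249 with a mean of at least 50, and 91 (3.48 points) with a mean of at least 200. At a nearest-library fold of 1.5 it found 551 (12 points) and at a fold of 3 it found 44 (1.62 points). With a library left out it found 176 to 566 genes and 4.39 to 13.4 points; the low end was without wild type replicate 2 and the high ends without wild type replicate 1 (566 genes) and CsBRC1-RNAi replicate 2 (412 genes, 13.4 points). Fewer libraries make the rule easier to meet. Without the 10 highest members the difference was 2.46 points, and without the highest 3.64. For the 37 named genes, Csa3G104850 not included, 14 of 518 log2 fold changes under other settings moved by more than the spread between replicates. Other filters, the replicate block and a constant prior variance leave a fold change as it is. Leaving out a library shifts it by only a part of the gap between replicates. Those settings could not count as moved, so the low number does not measure robustness. The sign of the fold changes was fixed by the choice of genes. No member had fewer than 44 reads in a library. The level limits of the rule leave out genes with few reads, so this holds for the members only. How depth affects which genes are chosen was not tested.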
